A study of Mus musculus with 7 samples.

Results

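The 8 genes described here, Asb11, Fam107a, B3galt2, Gas2, Tpd52l1, Pxylp1, Rgs19 and Entpd4, were picked as genes that are little discussed in islet work. They were selected on their measured values, as genes with a small spread within each group and no overlap between FoxO triple knockout and control islets, and stand among 14807 genes that had a named probe set. Each had 1 probe set with 1 gene symbol in the platform annotation, so all 8 members were found. The knockout group was 3 islet samples labelled as beta cell-specific triple knockouts of FoxO1, FoxO3 and FoxO4, numbered 5 to 7. The control group was islets of littermates labelled WT, 4 samples, numbered 1 to 4. Both groups were of a 129 x FVBn x C57BL/6 background and matched for age and sex. The labels give neither the ages, nor the promoter that drives the deletion, nor whether the littermates carry Cre or unrecombined alleles, and a mark R+ in the knockout titles is not explained. Single animals and pools are not told apart there either, so errors and p values below measure the spread between these samples only.

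FoxO proteins are forkhead transcription factors. Insulin signalling through Akt phosphorylates them and moves them out of the nucleus, and in beta cells they are known for a part in keeping the cells' identity and choice of fuel under metabolic stress. The 8 genes belong to no common pathway. B3galt2, Pxylp1 and Entpd4 encode enzymes of glycan and nucleotide handling in the Golgi, the compartment where proteins on their way out of the cell receive their sugar chains. Fam107a, Gas2 and Tpd52l1 encode proteins of the cytoskeleton or of vesicle traffic, Rgs19 encodes a brake on G protein signalling, and Asb11 a subunit of ubiquitin ligases.

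Stretches upstream of the members were searched for the letters that FoxO proteins are known to prefer, since all 8 genes lay on the same side of control islets. RefSeq windows on GRCm38.p6, 250 bases before to 50 after each annotated gene start, covered 7 of the 8 members with 12 windows, and Entpd4 had no entry. Neither GTAAACA nor CAAAACA, read on both strands, was in any of the 12 windows, against 3.65% and 6.28% of all 32851 windows and 9.63% for either. The shorter forkhead core AAACA, which both longer motifs end in, was added after those had matched nothing. It was in 4 of the 12 windows (33.3%), against 50.5% of all windows, and in 4 of the 7 members. Some windows of Fam107a overlap one another, as do some of Rgs19, so the 12 are not separate stretches. No match says only that these letters are not in these windows. The 4 windows with the core are shown up to the gene start, 5′ to 3′ on the strand of the gene, with AAACA or its reverse complement in capitals. They are those of Asb11 (chrX:164436744-164436993, plus strand), B3galt2 (chr1:143640447-143640696, plus strand), the second annotated start of Gas2 (chr7:51878717-51878966, plus strand) and Pxylp1 (chr9:96889475-96889724, minus strand).
Asb11: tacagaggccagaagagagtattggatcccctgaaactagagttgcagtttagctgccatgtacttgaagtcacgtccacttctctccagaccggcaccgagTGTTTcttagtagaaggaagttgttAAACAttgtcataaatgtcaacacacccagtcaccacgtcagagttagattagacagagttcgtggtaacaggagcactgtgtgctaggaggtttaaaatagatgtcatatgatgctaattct
B3galt2: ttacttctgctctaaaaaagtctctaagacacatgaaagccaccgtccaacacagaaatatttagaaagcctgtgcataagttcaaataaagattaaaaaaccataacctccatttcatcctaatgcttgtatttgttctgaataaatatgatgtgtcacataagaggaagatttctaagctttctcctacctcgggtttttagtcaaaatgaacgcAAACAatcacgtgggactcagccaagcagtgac
Gas2: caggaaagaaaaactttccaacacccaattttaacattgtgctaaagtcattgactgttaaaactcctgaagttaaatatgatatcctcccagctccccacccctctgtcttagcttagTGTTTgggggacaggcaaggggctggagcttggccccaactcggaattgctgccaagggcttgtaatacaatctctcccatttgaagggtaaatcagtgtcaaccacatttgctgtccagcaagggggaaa
Pxylp1: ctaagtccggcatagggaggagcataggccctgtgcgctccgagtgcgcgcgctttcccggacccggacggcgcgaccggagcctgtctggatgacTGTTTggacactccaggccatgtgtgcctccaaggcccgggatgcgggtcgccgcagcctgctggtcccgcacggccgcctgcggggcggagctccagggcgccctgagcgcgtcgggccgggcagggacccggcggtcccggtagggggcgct
The Asb11 stretch holds the core on both strands, and each of the other three holds it once.

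Expression was measured on Affymetrix arrays as log2 values, so a difference of 1 is a doubling, and values of different genes are not compared with each other because each probe set has its own brightness. Array medians ran from 7.11 to 7.29. Controls 3 and 4 stood apart from the other 5 samples on the first principal component, at 43.2 and 30.3 against -29.0 to -3.40, a component that held 64.7% of the variance. Their upper quartiles, 8.63 and 8.81, were below those of the other samples, 8.88 to 8.95, so results are also given without them. The targeted genes differed between knockout and control islets by -0.47 (SE 0.16) for Foxo4, -0.26 (SE 0.17) for Foxo1 and -0.16 (SE 0.11) for Foxo3, with limma adjusted p values of 0.362, 0.490 and 0.486, and the difference was 0.07 for the untargeted Foxo6 (SE 0.15, limma adjusted p = 0.873). The labels do not place the probes relative to the deleted parts of these genes, and the values are no check of the labels.

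Across all genes, knockout islets differed from control islets at an adjusted p under 0.05 in 1 gene, Aldh1a3 (0.00675% of those tested, limma, adjusted p = 0.0164), which is no member. At an unadjusted p under 0.05, 11.6% of genes were higher and 2.14% lower in knockout islets. Groups did not overlap for 8.99% of genes with higher values in knockout islets and for 1.94% with lower ones. All 8 members are of the first of these last kinds. Because the same contrast chose them, their values are a description, no p is given for them, and nothing is read from that count. Of all genes, 33 had a gap between the groups at least as wide as the narrowest of a member, 0.34, and 32 of these were higher in knockout islets.

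**Figure D1:**
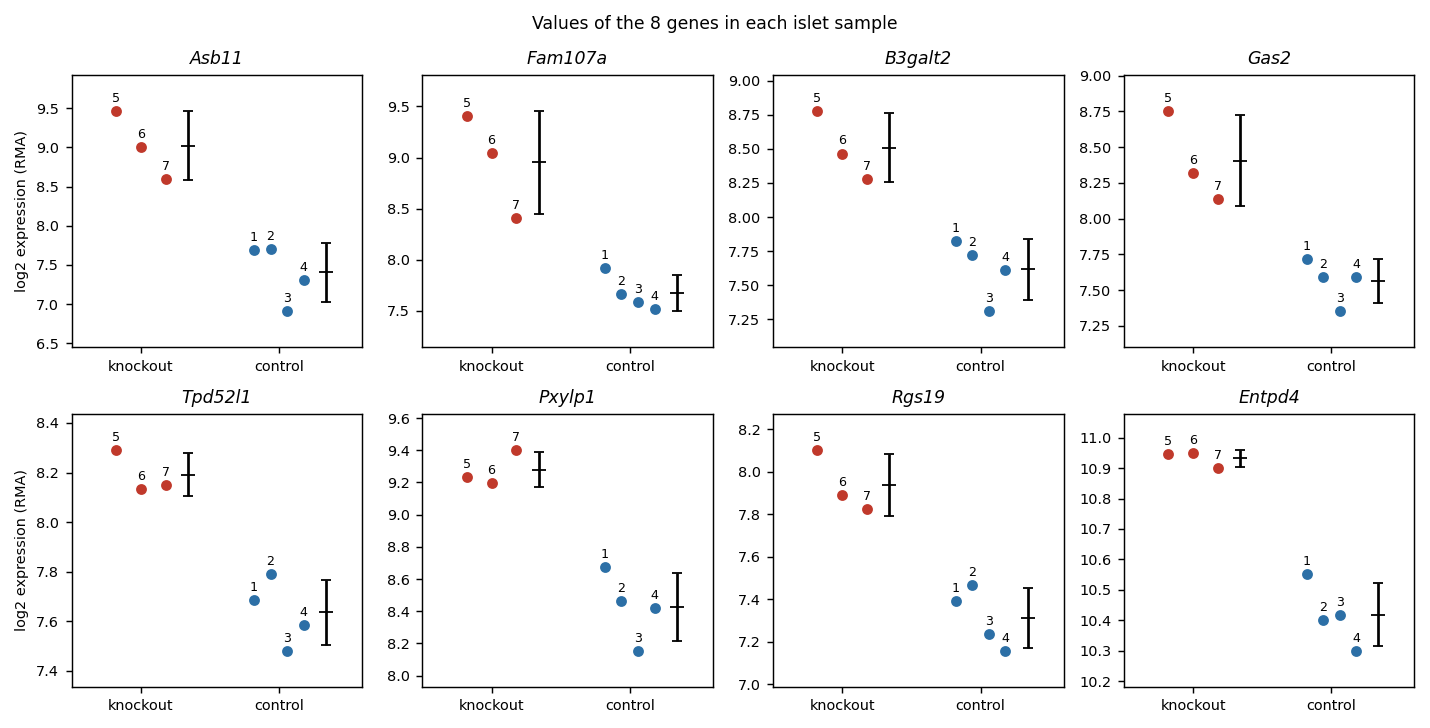
Log2 expression of each of the 8 genes in 3 knockout samples (red, numbered 5 to 7) and 4 control samples (blue, numbered 1 to 4), with mean and SD beside each group; each panel has its own vertical axis. In every panel all knockout points lie above all control points, with gaps of 0.34 for Tpd52l1 to 0.89 for Asb11.

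Asb11 had the widest gap of the 8. It encodes an ankyrin repeat and SOCS box protein, a subunit that brings substrates to ubiquitin ligases built on cullin 5. Its log2 values were 9.47, 9.0 and 8.59 in knockout samples 5, 6 and 7, against 7.69, 7.70, 6.91 and 7.31 in control samples 1 to 4. The lowest knockout value thus lay 0.89 above the highest control value. Means were 9.02 ± 0.44 (SD, n = 3) in the knockouts, against 7.40 ± 0.38 (SD, n = 4) in the controls, a difference of 1.62 (SE 0.25), or 3.07-fold. In whole islets, more cells of a type and more RNA per cell cannot be told apart, and this holds for every gene below.

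Rgs19 encodes a regulator of G protein signalling, which speeds the return of inhibitory G alpha subunits to their inactive state. Values of 8.10, 7.89 and 7.82 were measured in knockout samples 5, 6 and 7, against 7.39, 7.47, 7.24 and 7.16 in controls 1 to 4. Both groups were tight, with means of 7.94 ± 0.15 (SD, n = 3) in the knockouts, against 7.31 ± 0.14 (SD, n = 4) in the controls. The difference was 0.63 (SE 0.12), 1.54-fold, with a gap of 0.36 between the groups.

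Among the Golgi enzymes, B3galt2 adds galactose in a beta-1,3 linkage to N-acetylglucosamine at the ends of sugar chains. Its values were 8.78, 8.47 and 8.28 in knockout samples 5, 6 and 7, against 7.83, 7.72, 7.31 and 7.61 in controls 1 to 4. Control 3 was the lowest of all 7 samples. The means were 8.51 ± 0.25 (SD, n = 3) in the knockouts, against 7.62 ± 0.22 (SD, n = 4) in the controls, 0.89 (SE 0.16) or 1.86-fold apart.

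Pxylp1 encodes a phosphatase that takes the phosphate off the xylose through which proteoglycan chains hang on their core protein, undoing the action of the kinase Fam20b. Knockout samples 5, 6 and 7 had 9.23, 9.20 and 9.40, against 8.67, 8.46, 8.16 and 8.42 in controls 1 to 4. Here knockout 7 was the highest sample, whereas it was the lowest knockout sample for 6 of the 8 genes. Means of 9.28 ± 0.11 (SD, n = 3) in the knockouts, against 8.43 ± 0.21 (SD, n = 4) in the controls gave a difference of 0.85 (SE 0.13), 1.80-fold.

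Entpd4 encodes a hydrolase of the Golgi and lysosomes that splits UDP and other nucleoside diphosphates, UDP being what glycosyltransferases leave behind. Its log2 values were 10.95, 10.95 and 10.90 in knockout samples 5, 6 and 7, against 10.55, 10.40, 10.42 and 10.30 in controls 1 to 4. The 3 knockout samples spanned 0.05, the narrowest range of a member. The difference of 0.51 (SE 0.09), 1.43-fold, lay between means of 10.93 ± 0.03 (SD, n = 3) in the knockouts, against 10.42 ± 0.10 (SD, n = 4) in the controls. RefSeq also annotates a second gene of this name on chromosome 14, Entpd4b, which has no named probe set here, and whether the Entpd4 probes tell the copies apart was not tested.

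Of the cytoskeletal and vesicle proteins, Fam107a binds actin and is known in mouse brain as a gene induced by stress and glucocorticoids. It had values of 9.40, 9.05 and 8.41 in knockout samples 5, 6 and 7, against 7.92, 7.66, 7.58 and 7.52 in controls 1 to 4. The knockout samples were spread over 1.00, the widest range of a member, and the controls over 0.40. Means were 8.95 ± 0.51 (SD, n = 3) in the knockouts, against 7.67 ± 0.18 (SD, n = 4) in the controls, a difference of 1.28 (SE 0.22), 2.43-fold.

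Gas2, named for its induction in growth-arrested fibroblasts, links actin filaments to microtubules and is cut by caspases in dying cells. Its knockout values were 8.76, 8.32 and 8.14 in samples 5, 6 and 7, against 7.72, 7.59, 7.35 and 7.59 in controls 1 to 4. Knockout 5 stood furthest from the controls, as it did for B3galt2. The means, 8.40 ± 0.32 (SD, n = 3) in the knockouts, against 7.56 ± 0.15 (SD, n = 4) in the controls, differed by 0.84 (SE 0.16), 1.79-fold.

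Tpd52l1 encodes a coiled-coil protein that pairs with other members of the tumour protein D52 family, which take part in vesicle traffic. Its values of 8.29, 8.13 and 8.15 in knockout samples 5, 6 and 7 stood against 7.69, 7.79, 7.48 and 7.58 in controls 1 to 4. Neither group spanned more than 0.31. The difference was 0.55 (SE 0.11), 1.47-fold, from means of 8.19 ± 0.09 (SD, n = 3) in the knockouts, against 7.64 ± 0.13 (SD, n = 4) in the controls.

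The differences were also taken without the pair of controls that stood apart. Without controls 3 and 4, the members' differences were 81.5% to 90.6% of their full size, from 1.32 (SE 0.23) for Asb11 to 0.45 (SE 0.11) for Tpd52l1, and their median was 0.72, against 0.85 with all samples. The median over all genes was 0.03 without those controls and 0.08 with them. After quantile normalization, which forces the arrays to 1 common distribution, the median over all genes was -0.02 (-0.06 after centring each array) and the members' differences ran from 0.30 for Entpd4 to 1.48 for Asb11. A small spread within groups was part of the choice of members, so how little these values moved is a description and no sign of stability.

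**Figure D2:**
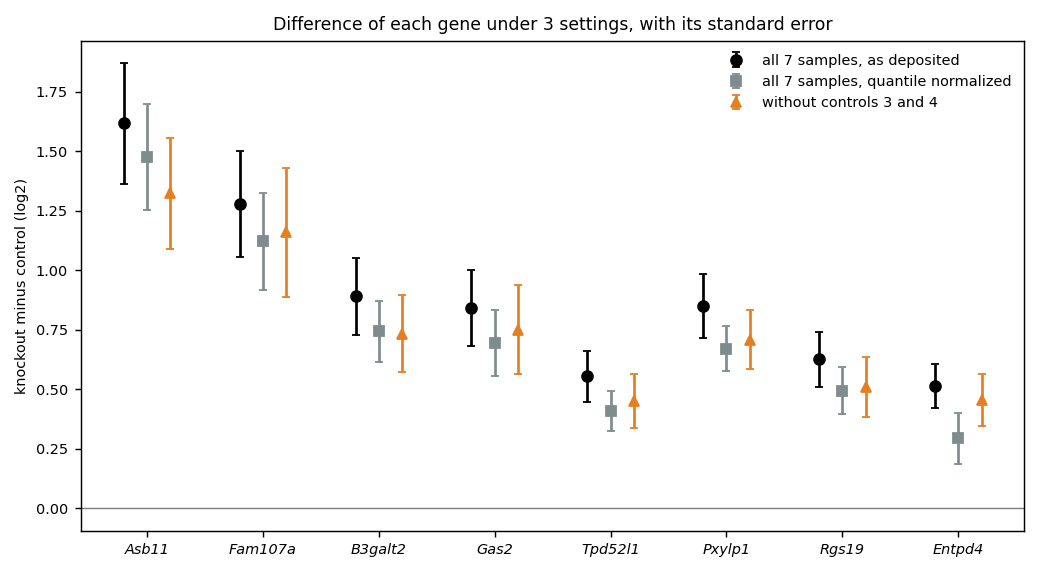
Difference between knockout and control islets (log2, knockout minus control) for each gene, with its standard error, in all 7 samples as deposited, after quantile normalization, and without controls 3 and 4. All points lie above 0; Entpd4 has 0.51, 0.30 and 0.46 under the 3 settings.

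The highest knockout and the lowest control sample were the same for most of the 8 genes, while the full order differed between genes. Knockout 5 was the highest knockout sample for 6 of them, knockout 6 for Entpd4 and knockout 7 for Pxylp1. Control 3 was the lowest control for 5 genes, and control 4 for Fam107a, Rgs19 and Entpd4. These extremes were also common outside the list: among the 1331 genes whose knockout samples all lay above all controls, knockout 5 was highest in 62.4%, control 3 lowest in 71.8% and control 4 lowest in 18.6%. Knockout 5 is also the sample furthest from controls 3 and 4 on the first principal component, and the part of that component in the members' values was not tested.

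**Figure D3:**
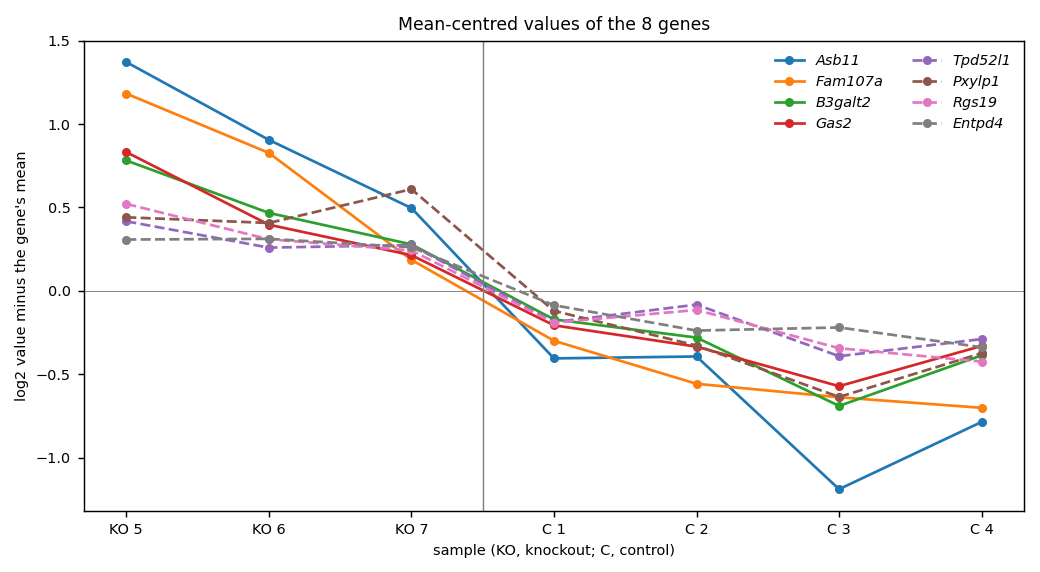
Log2 value of each gene minus its own mean over the 7 samples, with lines joining the samples of a gene only to guide the eye; knockout samples stand left of the vertical line and controls right of it. Asb11 and Fam107a span the widest range, and the curves of B3galt2 and Gas2 nearly coincide.

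Likeness between genes was measured as the root mean square difference between mean-centred log2 values over the 7 samples, where a smaller value means a closer pattern. B3galt2 and Gas2 were each other's nearest of all 14807 genes, at 0.07, against a median of 0.46 between B3galt2 and all genes and 0.44 for Gas2. Tpd52l1 and Rgs19 were likewise mutual nearest genes, at 0.07, against medians of 0.30 and 0.33. All of these genes were picked for the same kind of group difference, which brings their patterns together.

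Outside the list, B3galt2 was next nearest to P2ry14, a receptor for UDP-glucose (0.09), which also came second for Fam107a (0.22). P2ry14 had 6.94, 6.50 and 6.28 in knockout samples 5, 6 and 7, against 5.92, 5.70, 5.27 and 5.49 in controls 1 to 4. Gas2 was followed by Syce2, of the synaptonemal complex (0.10), Tpd52l1 by Lrif1, a nuclear protein (0.08), and Rgs19 by Trappc2l, of a vesicle tethering complex (0.08). Nearest to Asb11 were Tnfrsf11b, the decoy receptor osteoprotegerin (0.22), and Synpr, a synaptic vesicle protein (0.24). Fam107a lay nearest to Akr1c14, a hydroxysteroid dehydrogenase (0.19). Pxylp1 lay nearest to Pfn4, a profilin (0.11), and Dcx, the microtubule protein doublecortin (0.14), and Entpd4 to Gadd45gip1 (0.05), a protein of mitochondrial ribosomes, and Ankrd22 (0.07). Medians over all genes were 0.83 for Asb11, 0.66 for Fam107a, 0.44 for Pxylp1 and 0.28 for Entpd4. A group difference like that of the member brings a gene near it by this measure, so these likenesses are a description only.

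Other genes of the members' families and pathways were listed and examined next. The lists were drawn up with earlier results of these data known, so they are no independent test. Of 147 listed, 129 were measured, and 0 passed the threshold over all genes. At an unadjusted p under 0.05, 14 were higher (10.9%) and 3 lower (2.33%) in knockout islets, shares close to the 11.6% and 2.14% of all genes. Their median difference was 0.13, against 0.08 for all genes. After quantile normalization 9 were higher and 8 lower, with a median of -0.003, and without controls 3 and 4, 2 were higher and 2 lower. The 14 and 3 became 4 and 1 without knockout 5, 4 and 1 without knockout 6, 15 and 6 without knockout 7, 31 and 3 without control 1, 23 and 5 without control 2, 10 and 1 without control 3, and 6 and 2 without control 4. Shares of all genes at an unadjusted p were taken only for the values as deposited. No change between settings is therefore read as particular to the listed genes. For 16 of the 21 family genes named below, the difference was over 1.5 times smaller without controls 3 and 4. The 21 had adjusted p values of 0.362 to 0.419 in limma.

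The cullin 5 ligase list, to which Asb11 belongs, had 19 measured genes with a median difference of 0.10, against 0.08 for all genes. Differences were positive for 14, a share not counted over all genes. At an unadjusted p under 0.05, 5 of the 19 were higher, a larger share than the 11.6% of all genes. The difference in share was not tested. Under quantile normalization 4 were higher, and without controls 3 and 4, 1 was. Asb13, another substrate subunit, was at 10.09 ± 0.11 (SD, n = 3) in the knockouts, against 9.56 ± 0.28 (SD, n = 4) in the controls. Eloc, the elongin that joins SOCS box proteins to the cullin, differed by 0.61 (SE 0.20) and Asb3 by 0.82 (SE 0.28), but by 0.31 and 0.47 without controls 3 and 4, where Asb13 differed by 0.28 rather than 0.52 (SE 0.16). Among RGS proteins and inhibitory G alpha subunits, 23 were measured, 2 were higher and 2 lower unadjusted, and the median was 0.12. The median was -0.03 under quantile normalization, with 1 higher and 4 lower, and 0.03 without controls 3 and 4, with 0 higher and 0 lower. Rgs5 differed by 0.71 (SE 0.22), whereas Rgs9 differed by -0.53 (SE 0.19) and Rgs11 by -0.70 (SE 0.26). Rgs9 had 9.08, 9.27 and 9.40 in knockout samples 5, 6 and 7, against 9.47, 9.51, 9.93 and 10.21 in controls 1 to 4, the opposite side to Rgs19. Without controls 3 and 4 these 3 differed by 0.40, -0.24 and -0.35.

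Among 20 measured galactosyltransferases and related enzymes, 17 had positive differences, a share not counted over all genes, and 3 were higher unadjusted. The median was 0.28, against 0.08 for all genes. It was 0.16 under quantile normalization, against -0.02 for all genes, and 0.09 when controls 3 and 4 were dropped, against 0.03. B3galt5, a close relative of B3galt2, had 8.16, 8.03 and 8.03 in knockout samples 5, 6 and 7, against 7.81, 7.61, 7.40 and 7.74 in controls 1 to 4, so its groups did not overlap either. It differed by 0.43 (SE 0.12), and by 0.36 without controls 3 and 4. C1galt1, the core 1 synthase of O-glycans, differed by 0.72 (SE 0.31), or 0.20 without those controls, and its chaperone C1galt1c1 by 0.63 (SE 0.22). Proteoglycan synthesis, the pathway of Pxylp1, had 26 measured genes with 1 higher unadjusted and a median of 0.10. Under quantile normalization the median was -0.06, with 1 higher and 2 lower, and without controls 3 and 4 it was 0.02, with 0 higher and 0 lower. The gene higher in the values as deposited was Sdc1, a membrane proteoglycan, which differed by 0.34 (SE 0.13). Extl2 and Csgalnact2, enzymes that add sugars to the chains, differed by 0.49 (SE 0.22) and 0.34 (SE 0.16), or by 0.16 and 0.11 without controls 3 and 4. Fam20b, the kinase that Pxylp1 opposes and a gene picked here for that role, differed by 0.21 (SE 0.14), but by 0.02 without controls 3 and 4 and by -0.004 under quantile normalization.

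Nucleoside diphosphatases and nucleotide sugar carriers, set beside Entpd4, had 18 measured genes, 1 higher unadjusted and a median of 0.11. The median was 0.02 under quantile normalization, with 1 higher and 1 lower, and 0.002 without controls 3 and 4, with 0 higher and 1 lower. Slc35a3, a carrier of UDP-N-acetylglucosamine into the Golgi, had 9.48, 9.25 and 9.01 in knockout samples 5, 6 and 7, against 8.94, 8.97, 7.94 and 8.41 in controls 1 to 4. Its groups did not overlap, but the difference of 0.68 (SE 0.26) was 0.29 without controls 3 and 4. The carriers Slc35a1 and Slc35d1 differed by 0.32 (SE 0.15) and 0.24 (SE 0.13), or by 0.14 and 0.07 without those controls.

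Of 12 measured relatives of Gas2 and Tpd52l1 and calpains, 2 were higher and 1 lower unadjusted, with a median of 0.15 that moved to -0.05 under quantile normalization and to -0.04 when controls 3 and 4 were dropped. Dst, a linker of cytoskeletal filaments, was at 9.97 ± 0.19 (SD, n = 3) in the knockouts, against 10.42 ± 0.19 (SD, n = 4) in the controls, a difference of -0.45 (SE 0.14). The calpains Capn1 and Capn7 differed by 0.24 (SE 0.09) and 0.37 (SE 0.15), and Capn7 by 0.18 without controls 3 and 4. A list of 11 measured glucocorticoid-related genes, which includes the receptor gene Nr3c1 and Fam107b, was set beside Fam107a. On this list 0 had an unadjusted p under 0.05. Differences were positive for 8 and negative for 3, a share not counted over all genes. The median was 0.06, against 0.08 for all genes, or -0.12 after quantile normalization. Fam107b, the relative of Fam107a, had 9.06, 8.99 and 8.16 in knockout samples 5, 6 and 7, against 8.50, 8.26, 6.64 and 7.67 in controls 1 to 4, which overlapped. It differed by 0.98 (SE 0.44), or 0.36 without controls 3 and 4, where the cell cycle inhibitor Cdkn1a and the glucocorticoid receptor Nr3c1 differed by 0.07 and 0.10 in place of 0.79 (SE 0.43) and 0.34 (SE 0.17).

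**Figure D4:**
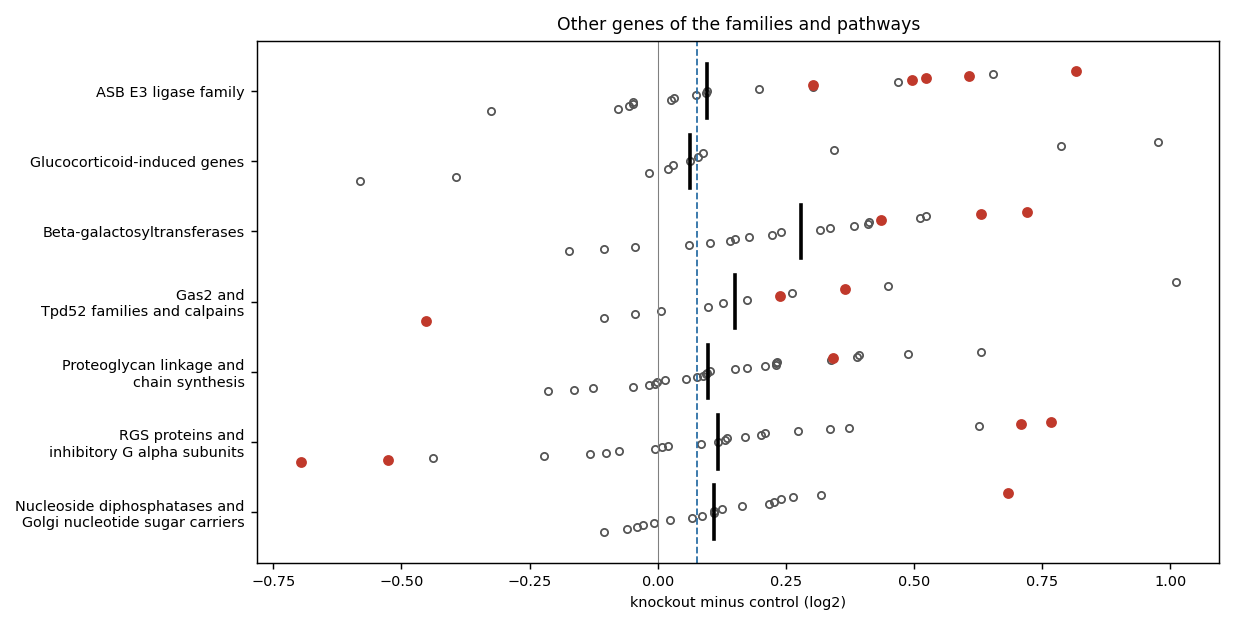
Difference between knockout and control islets (log2) of each measured gene in 7 family and pathway lists, without the 8 genes themselves; filled red points have an unadjusted p under 0.05, black bars are list medians and the dashed line is the median of all genes, 0.08. Most points lie between -0.5 and 0.8, and 0 of the 129 genes passed after adjustment.

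The 5 measured genes on each side of each member in RefSeq order were examined as a second set. Asb9, Rnf7, Rgs2 and Rgs13 are also on the family lists, so the sets share genes. Of the 80 neighbours 60 had positive differences, a share not counted over all genes. Their median was 0.11, against 0.08 for all genes, and 0 passed the adjusted threshold. At an unadjusted p under 0.05, 19 were higher (23.8%) and 2 lower (2.50%) in knockout islets, against 11.6% and 2.14% of all genes, and 12 had non-overlapping groups with higher knockout values (15.0%, against 8.99%). The difference in share from all genes was not tested. The 19 and 2 became 10 and 4 under quantile normalization, 11 and 5 under median centring of the arrays, and 4 and 2 when controls 3 and 4 were dropped. They were 4 and 0 without knockout 5, 10 and 0 without knockout 6, 19 and 2 without knockout 7, 10 and 1 without control 3, 11 and 0 without control 4, 21 and 1 without control 2, and 26 and 2 without control 1. For 14 of the 21 genes the difference was over 1.5 times smaller without controls 3 and 4. Because the shares of all genes were taken only for the values as deposited, no such change is read as particular to the neighbours.

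Beside Pxylp1, Slc25a36, a mitochondrial carrier of pyrimidine nucleotides, had 10.73, 10.45 and 10.14 in knockout samples 5, 6 and 7, against 10.04, 9.61, 9.13 and 9.34 in controls 1 to 4. Its difference of 0.91 (SE 0.23, limma adjusted p = 0.362) was 0.61 without controls 3 and 4. Clstn2 and Atp1b3 on the same stretch differed by 0.35 (SE 0.11) and 0.50 (SE 0.15), or by 0.23 and 0.44 without those controls. Beside Fam107a, the RNase P subunit gene Rpp14 differed by 0.75 (SE 0.20), or 0.50 (SE 0.16) without controls 3 and 4. The genes 3830406C13Rik and Fhit differed by 0.57 and 0.37, or by 0.34 and 0.20 without those controls. Around B3galt2 the unadjusted set held Zbtb41, Glrx2, Uchl5 and Rgs2, with differences of 0.54, 0.51, 0.28 and 0.77. Without controls 3 and 4 these were 0.30, 0.19, 0.27 and 0.28. B3galt2 itself lies within the span of Cdc73 in the annotation, and Cdc73 differed by 0.18 (SE 0.12). Gas2, Tpd52l1 and Entpd4 each overlap an annotated protein-coding gene as well, Fancf, Supt4b and Gm16867 in that order. None of these had a named probe set here.

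Around Gas2 the set held Luzp2, Tubgcp5 and Nipa2 (0.26, 0.37 and 0.37), around Tpd52l1 Rnf146, Trmt11 and Hint3 (0.29, 0.33 and 0.54), and around Asb11 Cltrn and Mospd2 (0.59 and 0.60). Without controls 3 and 4 the values beside Gas2 were 0.21, 0.21 and 0.27. Those beside Tpd52l1 were then 0.19, 0.23 and 0.29, and those beside Asb11 0.27 and 0.33. Asb9, the direct neighbour and relative of Asb11, was at 6.80 ± 0.48 (SD, n = 3) in the knockouts, against 6.15 ± 0.45 (SD, n = 4) in the controls, a difference of 0.65 (SE 0.29) with overlapping values, which was 0.28 (SE 0.26) without controls 3 and 4. Next to Rgs19, Polr3k differed by 0.64 and Myt1 by -0.53, and next to Entpd4 the set held Slc25a37 alone, at -0.26. Without controls 3 and 4 these differences were 0.36, -0.24 and -0.19. Among the targeted genes, Foxo3 shares chromosome 10 with Tpd52l1, with 38 measured genes between them, and Foxo4 shares chromosome X with Asb11, with 174 between. Any bearing of that position on the values was not tested.

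**Figure D5:**
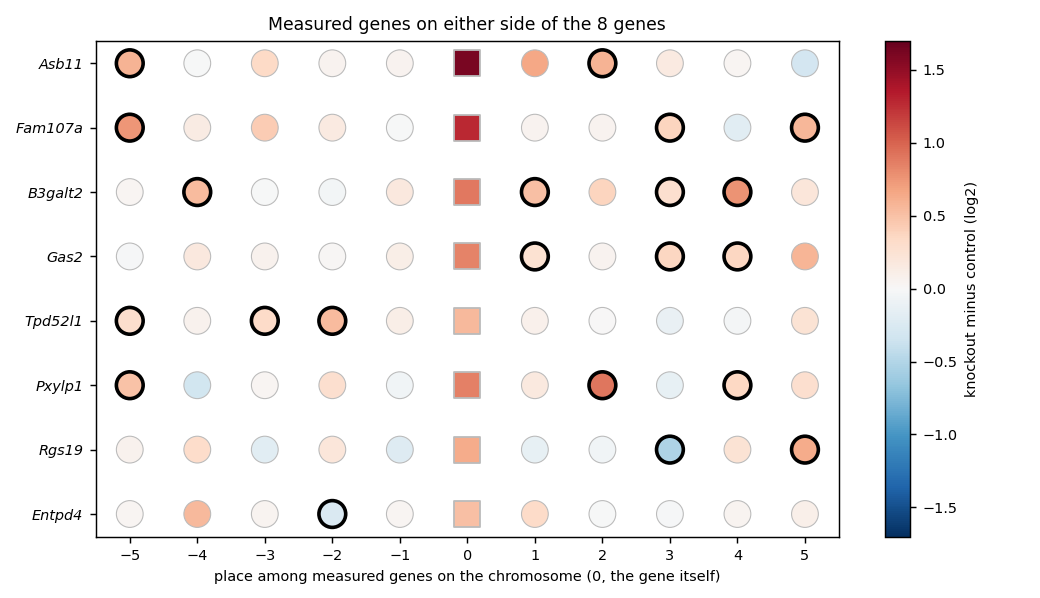
Difference between knockout and control islets (log2, colour scale) of the 5 measured genes on each side of each of the 8 genes, which are the squares at 0; black rings mark an unadjusted p under 0.05. Rings surround 21 of the 80 circles, and every square is deeper red than most of its circles.

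Islets also hold cells of other kinds, and 48 of 57 listed markers of 8 cell classes were measured. Of these, 0 passed the adjusted threshold, 0 were higher and 1 (the endothelial receptor gene Kdr) was lower at an unadjusted p under 0.05, and 0 had non-overlapping groups. Endocrine markers, led by Ppy and Iapp, averaged 12.92 to 13.00 over knockout samples and 12.80 to 12.99 over control samples on the log2 scale. Group means of Ppy and Iapp were 13.7 to 13.9, near the highest value on any array, 14.3. Whether such bright probe sets can show a shift was not tested. Acinar markers, led by Ctrb1 and Cpa1, averaged 8.90 to 9.64 in knockout and 8.32 to 9.63 in control samples. The leukocyte list, led by Csf1r and Cd68, lay at 6.59 to 6.79 in knockout and 6.54 to 7.21 in control samples, and the fibroblast list, led by Dcn and Pdgfrb, at 7.12 to 7.35 and 6.93 to 7.50. Endothelial means, led by Eng and Cdh5, were 8.72 to 8.94 in knockout and 8.81 to 9.21 in control samples. Duct markers (Sox9 and Muc1) were at 5.91 to 6.39 in knockout and 5.96 to 6.18 in control samples, neuronal and glial markers (Elavl4 and Sox10) at 7.00 to 7.16 and 6.93 to 7.12, and muscle markers (Acta2 and Acta1) at 7.04 to 7.30 and 6.95 to 7.19. Single markers differed more than these means: Dcn, of fibroblasts, was at 8.45 ± 0.36 (SD, n = 3) in the knockouts, against 7.76 ± 0.86 (SD, n = 4) in the controls, a difference of 0.69. Acta2, of smooth muscle and stellate cells, was at 8.11 ± 0.35 (SD, n = 3) in the knockouts, against 7.62 ± 0.42 (SD, n = 4) in the controls, a difference of 0.50, whereas Pdgfrb differed by -0.14. The difference for Dcn lies within the range of the members' differences, and that for Acta2 lies just below the smallest, 0.51 for Entpd4. The median difference was 0.06 over the 6 fibroblast markers and 0.10 over the 6 muscle markers, against 0.08 for all genes. In each of these lists 4 differences were positive. The part of other cells in the members' values was not tested.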

How the data were processed

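Total RNA of 7 islet samples, extracted with Trizol and labelled by a Nugen protocol per the labels, was hybridised to Affymetrix arrays. The authors deposited log2 values per transcript-level probe set, and the submitters' processing notes name RMA and Affymetrix Expression Console. RMA subtracts background, matches the arrays' distributions and summarises probes and gives no detection call. Values from 2.50 to 14.3 bear out the log2 scale. The sources used here name neither a software version nor a genome build.

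Of 23238 probe sets, 14939 had 1 symbol, 989 several and 7310 none, and 14884 matched RefSeq by Entrez ID. The probe set with the highest mean stood for each of 14807 genes. The group difference was fitted in limma 3.58.1 (R 4.3.3, two-sided, no covariates, dim probe sets kept), and p values were adjusted by Benjamini-Hochberg over all genes; the fit was tested on simulated data. SE is that of the moderated fit. Members and lists were chosen with earlier results of these data known. Of each family list the 3 genes with the smallest p are named, of the neighbours those at an unadjusted p under 0.05, for each member the 2 nearest genes, and of each marker list the 2 with the highest mean; Fam20b, Asb9, Kdr, Cdc73 and Aldh1a3 were named after their values were seen. Alternatives were quantile normalization, centring, a filter on dim genes, mean probe sets, all probe sets, array weights, a robust trended prior, an unmoderated test, and leaving out samples. The number of arrays limits the precision.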

Additional observations from a re-analysis of the deposited data

How the results depend on the processing

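Of 96 recomputed member differences (12 alternatives for each gene), 91 moved by less than 1 within-group SD. The others were those of Tpd52l1 (0.41 after quantile normalization, 0.42 after centring), Entpd4 (0.30 and 0.38) and Pxylp1 (0.67 after quantile normalization), settings that moved the median of all genes to -0.02 and -0.06. Each member had 1 probe set, so the alternative that averages a gene's probe sets could not move its value. A small spread within groups was also part of the choice of members. The count of 91 is therefore a description and no sign of stability. With single samples left out, Asb11 ran from 1.39 to 1.83, Fam107a from 1.06 to 1.55, Gas2 from 0.67 to 0.98 and Entpd4 from 0.48 to 0.56.

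The count of genes past the adjusted threshold was 2 with quantile normalization, with centring or with array weights, and 0 with an unmoderated test, without controls 3 and 4, or with all probe sets tested; with single samples left out it ran from 0 to 1. Family and pathway genes and genes next to the members stayed at 0 past it under every alternative run for them (limma). The sample titles run in a single series and match no knockout sample to a control. No paired analysis was therefore run, and any litter shared between samples was not taken into account. Without detection calls, values of dim probe sets carry no lower bound.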
